A study of Drosophila melanogaster with 384 samples.

Results

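Respiratory complex I (NADH:ubiquinone oxidoreductase) was described through its nuclear-encoded subunit genes, taken as every gene of the deposited read count table whose current symbol starts with ND-. All 40 such symbols of the gene name table had a row, and 38 of these genes had a read, out of 11824 features with a read. The measured set was the 33 genes whose level, averaged over the control and the tumor pool, was at least 5 counts per 1000000 reads (CPM). Besides subunits, the symbol rule takes in 6 paralogs (ND-20L, ND-24L, ND-49L, ND-51L1, ND-51L2 and ND-B14.5AL) and ND-MLRQ, whose mammalian counterpart is found with complex IV.

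The cells were single neuroblasts, the stem cells of the fly nervous system, sorted by flow cytometry from dissociated central brains and amplified by SMART-Seq2 with 18 PCR cycles. Both groups carried UAS-Dcr2/+, inscGal4 and UAS-CD8::GFP/+, so that the insc driver drove Dicer-2 and a green membrane label in neuroblasts. Control animals also carried sh-mCherry (BL35785)/+, a hairpin against a gene that flies lack, and tumor animals sh-brat (BL34646)/+, a hairpin against the tumor suppressor brat. Larvae of both groups were reared at 29 °C and taken as wandering animals of the third instar aged 6 to 7 days. Control cells came from a pool of 5 brains (plates 1 and 2) and tumor cells from a pool of 3 brains (plates 3 and 4). The labels do not number the plates, which were taken here as the blocks of 96 consecutive library numbers. Each group was therefore a single pool, the difference between the groups cannot be told apart from a difference between plates or pools, and no test across cells was made. Ratios below are tumor over control, and the 4 pairings of a tumor plate with a control plate show their spread.

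Complex I takes electrons from NADH and passes them through a flavin and a chain of iron-sulfur clusters to ubiquinone, and it pumps protons across the inner mitochondrial membrane as it does so. Its N module binds NADH, its Q module reduces ubiquinone, and its P module is the proton-pumping membrane arm, whose core subunits are encoded in mitochondrial DNA, while accessory subunits from the nucleus surround all modules. In larval neuroblasts of Drosophila, knockdown of complex I subunits is known to slow proliferation, and brat tumors are known to be made of cells that resemble type II neuroblasts.

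Cells were kept at 100000 reads and 1000 genes or more, which gave 89, 91, 93 and 92 cells on plates 1 to 4. Kept control cells held 126882 to 2329488 reads and kept tumor cells 185566 to 1960187. The targeted gene brat was at 312 and 374 CPM in control, against 93.6 and 81.9 CPM in tumor. The neuroblast markers dpn, wor, mira, insc, klu and ase were present on every plate, with summed levels of 3521, 3869, 6185 and 6762 CPM on plates 1 to 4. The glial marker repo stayed under 0.1 CPM on every plate and the hemocyte markers Hml and NimC1 summed to at most 0.153 CPM, while Mhc of muscle was at most 1.67 CPM. The gene grh, listed with Mhc as a marker of epithelium or muscle, was at 249, 417, 796 and 584 CPM on plates 1 to 4. The glial list as a whole summed to 563, 333, 152.96 and 201 CPM, mostly from nrv2, and the neuronal list to 129.3, 106.5, 264 and 280.4 CPM, mostly from elav. The type II markers pnt, btd, Sp1 and tll summed to 313, 262, 3220 and 3217 CPM, so the compared pools also differed in neuroblast type. At an equal depth of 100000 reads, the median number of genes with a read per cell was 4674 and 5327 in control, against 3196 and 3149 in tumor. Their part in the ratios below was not tested, apart from the comparisons by length, genes per cell and neuroblast type.

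Complex I subunits made up 1.18% and 0.880% of all reads on control plates 1 and 2, and 0.489% and 0.530% on tumor plates 3 and 4. The tumor plates thus lay below both control plates, and the control plates differed from each other by more than the tumor plates did. Of the 33 measured subunits, 32 were lower on both tumor plates than on both control plates, which held for 35.1% of the 6450 genes measured. At the level of the pools, 19 of 33 were at least 2-fold lower in tumor, against 14.7% of all genes, and 0 of 33 at least 2-fold higher, against 13.1%. A ratio at least 2-fold lower in all 4 plate pairs was seen for 9 of 33, against 7.47% of all genes. The median log2 ratio of the subunits was -1.02, with medians of -1.35 and -1.23 for plates 3 and 4 over plate 1 and of -0.81 and -0.73 over plate 2, while the median of all genes was -0.001 for the pools. Without control plate 1 the count of subunits at least 2-fold lower was 10 of 33, and without control plate 2 it was 24.

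**Figure D1:**
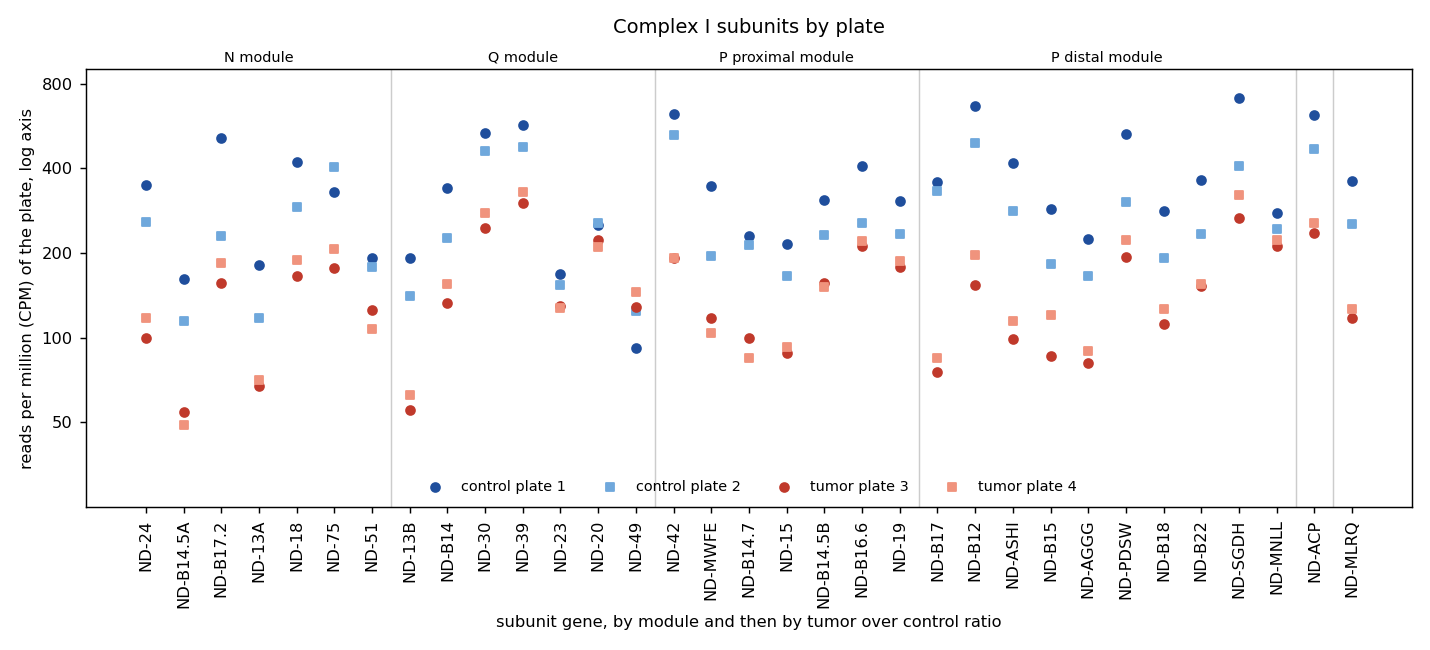
Level of the 33 measured subunit genes on each plate, in counts per 1000000 reads (CPM) on a log axis; each point is the sum over the kept cells of a plate, and genes are grouped by module and ordered by the ratio of tumor to control. For 32 genes both tumor points (red) lie below both control points (blue), and ND-49 is the exception.

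The control plates themselves were not alike. Control plate 2 was below control plate 1 for 30 of 33 subunits, against 53.9% of all genes, and at least 1.5-fold below it for 9 of 33, against 14.0% of all genes. The log2 ratio of plate 2 over plate 1 ran from -1.16 for ND-B17.2, with 514 and 229 CPM, to 0.43 for ND-49. The tumor plates were closer together, with log2 ratios of plate 4 over plate 3 from -0.23 to 0.48 and 7 of 33 subunits lower on plate 4, against 44.2% of all genes.

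In the N module, all 7 measured subunits were lower on both tumor plates, 5 of them at least 2-fold in the pools, with a median log2 ratio of -1.12. Over all genes the shares were 35.1% and 14.7%. ND-51, which holds the flavin and the NADH site (chromosome 2L, 6060842 to 6062757, minus strand), was at 191.6, 178.1, 124.97 and 107.3 CPM on plates 1 to 4. Its log2 ratio of -0.66 (-0.84 to -0.51 over plate pairs) was the nearest to 0 in the module. ND-24, its partner with an iron-sulfur cluster (chromosome X, 17632089 to 17633509, plus strand), was at 349.9 and 257 CPM in control, against 99.8 and 117.8 CPM in tumor. The plates did not overlap, and the log2 ratio was -1.49 (-1.81 to -1.13). ND-75, the largest subunit, which carries further iron-sulfur clusters (chromosome X, 8248651 to 8251687, minus strand), was at 329, 406, 176.6 and 207 CPM on plates 1 to 4, a log2 ratio of -0.94 (-1.20 to -0.67). Unlike 30 of the 33 subunits, it was higher on control plate 2 than on plate 1. The accessory subunits ND-B14.5A, ND-B17.2, ND-13A, which binds zinc, and ND-18 had log2 ratios of -1.41, -1.13, -1.12 and -1.02. ND-B17.2 had the widest spread of the 33 over plate pairs, -1.71 to -0.31.

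ND-B8, a further N module subunit whose human counterpart is NDUFA2, was nearly without reads. It was at 0.82, 0.22, 0.07 and 0.18 CPM on plates 1 to 4, with reads in 7.22% of control and 2.16% of tumor cells. Of its 460 exonic bases, 71 overlap Gs1l on the other strand, which was at 102.9 CPM in control, against 77.7 CPM in tumor. The next lowest subunit, ND-B14.5A, was at 48.98 CPM on its lowest plate. Why ND-B8 had so few reads was not tested.

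The Q module had the median log2 ratio nearest to 0 of the modules. Of 7 measured, 6 were lower on both tumor plates, against 35.1% of all genes. At least 2-fold lower was 1 of 7, near the 14.7% of all genes. The median log2 ratio was -0.73, and single ratios ran from -1.50 to 0.34. ND-49, part of the ubiquinone site (chromosome 4, 568296 to 571554, minus strand), was at 91.7 and 123.9 CPM in control, against 128.7 and 145.4 CPM in tumor. It was the single subunit higher on both tumor plates, which held for 33% of all genes, with a log2 ratio of 0.34 and a range of 0.05 to 0.66 over plate pairs, so that tumor plate 3 barely exceeded control plate 2. ND-20, which holds the last iron-sulfur cluster before ubiquinone (chromosome X, 15985473 to 15986808, minus strand), was at 250.5, 255, 222 and 209 CPM, with a log2 ratio of -0.22 (-0.28 to -0.17). ND-23, which holds a pair of clusters (chromosome 3R, 15836048 to 15837117, minus strand), was at 168.6, 153.3, 129.2 and 127.2 CPM, with a log2 ratio of -0.33 (-0.41 to -0.25). In both genes the plates of a group lay close together and the tumor plates lay just below the control plates. ND-30, the remaining nuclear core subunit of this module (chromosome 3L, 3158485 to 3159578, minus strand), was at 532, 461, 245 and 276 CPM, with a log2 ratio of -0.93 (-1.12 to -0.74).

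The accessory subunits of the Q module spanned a wider range. ND-13B had a log2 ratio of -1.50, with 166.4 CPM in control, against 58.7 CPM in tumor. The LYR protein ND-B14 lay just short of a 2-fold difference. It was at 341, 226, 133.2 and 155.6 CPM on plates 1 to 4, with a log2 ratio of -0.98. The nucleotide-binding ND-39 was at 522 CPM in control, against 314 CPM in tumor, a log2 ratio of -0.73. Over the whole complex, the 7 nuclear core subunits, all of the N and Q modules, had a median log2 ratio of -0.66 with 1 at least 2-fold lower. The 26 other measured genes, ND-ACP and ND-MLRQ included, had -1.12 with 18 at least 2-fold lower. The share over all genes was 14.7%, so by this count the core subunits were near genes as a whole. For tumor plates 3 and 4 the core median was -0.62 and -0.67 over control plate 1, and -0.51 and -0.73 over plate 2. That of the other genes was -1.42 and -1.26 over plate 1, and -0.81 and -0.69 over plate 2. For plate 4 over plate 2 the order was thus reversed. The core genes were also longer: their exons spanned a median of 1336 bases, and those of the other genes 787.5. Relative to genes of their own length, as described below, the medians were -0.40 and -0.59.

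In the membrane arm, all 17 measured nuclear subunits of the proximal and distal P modules were lower on both tumor plates, against 35.1% of all genes. The 7 proximal genes had a median log2 ratio of -1.07 with 4 at least 2-fold lower. The 10 distal genes had -1.10 with 7 at least 2-fold lower, against 14.7% of all genes. ND-42 of the proximal arm, the counterpart of human NDUFA10 (chromosome 3R, 22027709 to 22029393, plus strand), was at 625 and 526 CPM in control, against 191.6 and 193 CPM in tumor. The log2 ratio was -1.58 (-1.71 to -1.45), the lowest of the proximal arm. Its other members were ND-MWFE at -1.29, ND-B14.7 at -1.26, ND-15 at -1.07, ND-B14.5B at -0.82, ND-B16.6 at -0.62 and ND-19 at -0.57.

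The distal arm held the 3 lowest ratios of the complex. ND-B17, the counterpart of human NDUFB6 (chromosome 2L, 15749319 to 15751078, minus strand), was at 357 and 332 CPM in control, against 75.5 and 84.7 CPM in tumor. It was 4.31-fold lower in tumor, with log2 ratios of -2.24 to -1.97 over plate pairs. ND-B12, the counterpart of NDUFB3, was at 664, 493, 154.2 and 197 CPM and was 3.32-fold lower. ND-ASHI, the counterpart of NDUFB8 (chromosome X, 6677262 to 6679118, minus strand), was at 418, 281, 99.2 and 114.7 CPM and was 3.28-fold lower. In all 3 genes even the higher tumor plate was less than 0.5 of the lower control plate. At the other end, ND-MNLL was at 277, 243, 212 and 222 CPM, a log2 ratio of -0.26. All 720 of its exonic bases lie within CG45089 on the same strand, a gene that matched no row of the table, so reads of the pair could not be assigned to ND-MNLL alone.

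Between these, ND-B18 lay just past the 2-fold line, with 283, 191.6, 112.01 and 126.1 CPM on plates 1 to 4 and a log2 ratio of -1.001. ND-PDSW was at -1.01, ND-B22 at -0.96, ND-AGGG at -1.19 and ND-B15 at -1.20. ND-SGDH, among the most abundant subunits, was at 711 and 408 CPM in control, against 267 and 322 CPM in tumor, a log2 ratio of -0.94. The wide gap between its control plates gave plate pair ratios of -1.41 to -0.34. Outside the modules, the mitochondrial acyl carrier protein ND-ACP was at 618, 467, 236 and 256 CPM, with a log2 ratio of -1.14, and ND-MLRQ was at 361, 254, 117.4 and 126.1 CPM, with a log2 ratio of -1.34.

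Of the 6 paralogs, none reached 5 CPM. No read was seen for ND-20L or ND-B14.5AL in 384 wells. At equal depth a count of 0 cells gave an exact 95% upper bound of 2.03% of control and 1.97% of tumor cells, for counting error only. ND-51L1 was at 0.21, 0.18, 0.97 and 0 CPM on plates 1 to 4. ND-49L had 85 reads, all in a single control cell of plate 1, ND-24L had 32 reads, all on tumor plate 3, and ND-51L2 had 20 reads, all in a single control cell of plate 2.

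Per kilobase of exon, the level of the subunits ranged 14.1-fold in control and 5.14-fold in tumor. The medians were 323 CPM per kilobase in control and 161.8 in tumor. In control the highest level was that of ND-B12 at 955 CPM per kilobase, followed by ND-ACP at 645 and ND-SGDH at 631. The lowest was that of ND-49 at 67.6 CPM per kilobase, followed by ND-51 at 116.3 and ND-75 at 139.4. ND-ACP, on plates 1 and 2 at 734 and 554 CPM per kilobase, overlapped ND-SGDH at 801 and 459.6, so these neighbours did not differ beyond their spread, while ND-B12 at 1095 and 814 lay above both. In tumor the highest was ND-SGDH at 329.8 CPM per kilobase, then ND-MNLL at 301, ND-ACP at 292 and ND-B12 at 288, and the lowest was ND-B14.5A at 64.2. The 3 core subunits of lowest control level had lengths of 1590 to 2634 bases. The order was largely kept, with a Spearman correlation of 0.87 between the control and tumor levels of the 33 genes.

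Subunit genes are short, and short genes as a whole had lower ratios. Their exons covered 477 to 2634 bases, the median being 844 against 2166 over the genes measured, and 22 of 33 subunits were under 1000 bases, against 13.5% of genes. When the 6225 measured genes with an annotated length were put into 10 bins of equal size, the median log2 ratio went from -0.60 in the bin of shortest genes (up to 885 bases) to 0.50 in the bin of longest. The share of genes at least 2-fold lower was 32.9% in the shortest bin and 5.95% in the longest. Control plate 2 over plate 1 had a bin median of -0.36 for the shortest genes, 0.57 for the next to longest bin and 0.36 for the longest, and tumor plate 4 over plate 3 gave bin medians between -0.11 and 0.13. Across genes the Spearman correlation with length was 0.35 for the pool ratio, 0.39 for control plate 2 over plate 1 and -0.01 for the tumor plates.

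Set against genes of their own length by summed reads, the subunits were lower by a smaller amount. Of 33 subunits, 28 lay below the median of their length bin, which 50.0% of genes do by construction, and the median difference was -0.55 on the log2 scale, with -0.73 to -0.40 over the 4 plate pairs. The sign of this difference depended on the measure: with the median CPM over cells in place of summed reads it was 0.94. By that measure the median log2 ratio was -1.30 for the subunits and -1.71 for all genes, of which 58.2% were at least 2-fold lower. A gene without a read in most cells has a median of 0, and the part of such genes was not tested. By summed reads within the type II-like cells described below, the length-matched difference was -0.34. For control plate 2 over plate 1 it was -0.08. In the shortest bin the 18 subunits had a median log2 ratio of -1.14 against -0.60 for all genes of the bin, and in the next bin (886 to 1194 bases) 7 subunits had -1.07 against -0.41. The difference from the own bin was -1.70 for ND-B17, -1.42 for ND-ASHI, -1.32 for ND-42 and -1.13 for ND-B12. These are the 4 members of lowest ratio, and the difference is taken from that same ratio, so it is not a separate result. ND-75, the subunit with the most exonic bases, differed by -1.06 from a bin whose median was 0.12. The 5 subunits at or above their bin were ND-49 at 0.61, ND-MNLL at 0.33, ND-23 at 0.27, ND-20 at 0.07 and ND-19 at 0.03, and 3 of these are core subunits of the Q module. Among the subunits themselves, length and ratio had a Spearman correlation of 0.24.

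**Figure D2:**
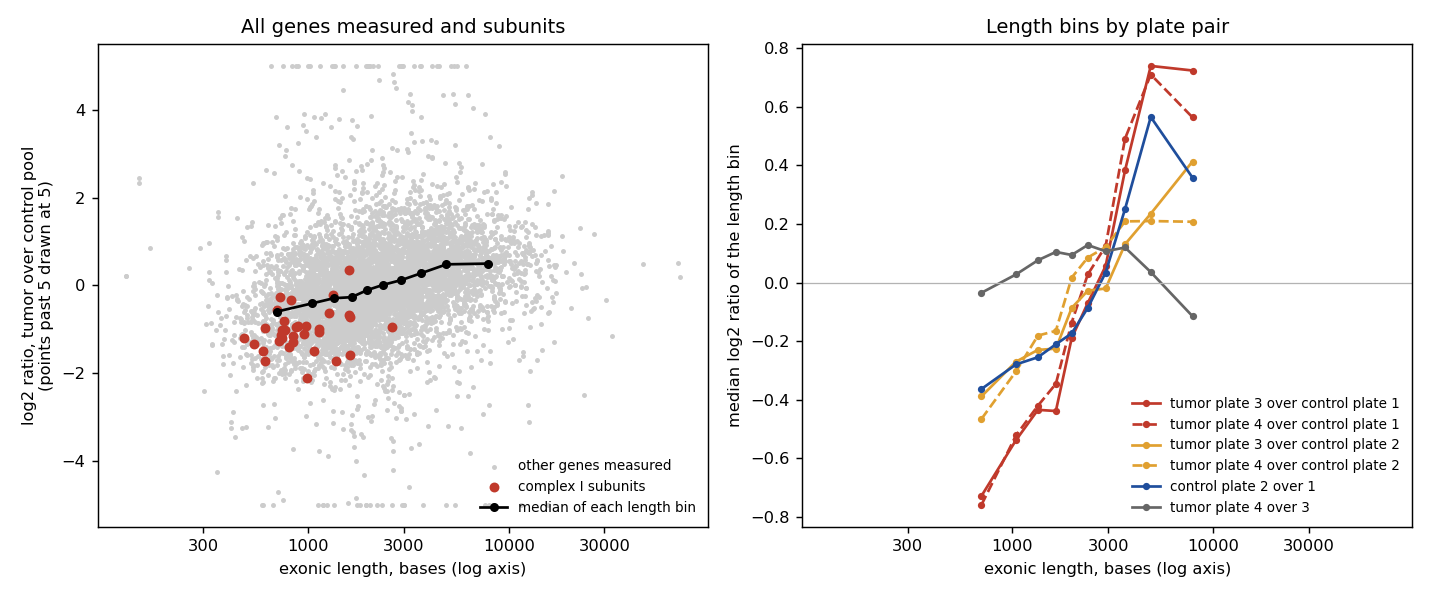
Left, log2 ratio of tumor over control pool against exonic length on a log axis, for subunits (red), other measured genes (grey) and the median of each of 10 length bins (black). Right, medians of the length bins for each plate pair; the tumor plates against each other stay near 0, while control plate 2 over plate 1 goes from -0.36 in the shortest bin to 0.57 in the ninth and 0.36 in the longest.

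The lower level was made up of fewer cells with a read and fewer reads in those cells. With every cell thinned to 100000 reads, a subunit had a read in a median of 98.3% of control cells (93.9% to 100% over subunits) and 76.8% of tumor cells (57.8% to 93.5%). All 33 subunits were seen in a smaller share of tumor cells, as were 91.4% of all genes. ND-24 and ND-B14.5A had the smallest share of tumor cells, both 57.8%, against 97.2% and 98.9% of control cells. ND-SGDH had the largest, 93.5% against 100%, followed by ND-20 at 91.9% against 99.4%. ND-49, although higher in summed reads, was also seen in fewer tumor cells, 75.1% against 95%. Among cells with a read, its median was 139.5 CPM in tumor against 105.1 CPM in control. Over the 33 genes, the median log2 ratio was -0.23 for the share of cells and -0.91 for the median CPM of cells with a read, and 32 of 33 were lower in the second measure, against 28.1% of all genes. Over all genes measured, the median share of cells was 79.4% in control and 45.9% in tumor, so genes as a whole were also seen in fewer tumor cells.

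**Figure D3:**
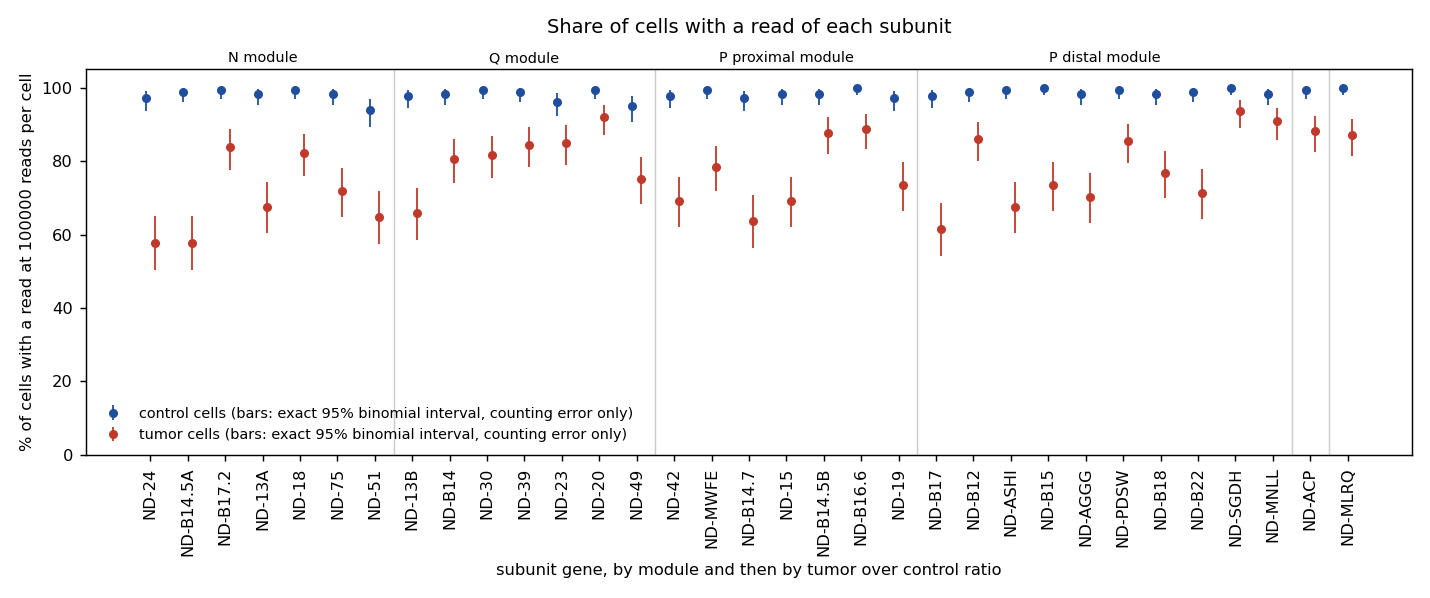
Share of cells with a read of each measured subunit at 100000 reads per cell, in percent, for control cells (blue) and tumor cells (red), with exact 95% binomial intervals, which cover counting error over the cells of a single pool only. Control shares lie between 93.9% and 100%, tumor shares between 57.8% and 93.5%.

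The difference between the pools was seen cell by cell. The summed share of complex I in a cell's reads had a median of 1.15% and 0.872% on control plates 1 and 2, with quartiles of 1.04% to 1.30% and 0.821% to 0.950%. On tumor plates 3 and 4 the median was 0.471% and 0.479%, with quartiles of 0.382% to 0.563% and 0.368% to 0.596%. Of the tumor cells 3 (1.62%) lay above the control median, and of the control cells 5 (2.78%) below the tumor median, although the full ranges overlapped (0.325% to 2.83% in control, 0.189% to 2.53% in tumor). All 33 subunits were seen at equal depth in 88.3% of control cells and in 11.4% of tumor cells.

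The number of subunits seen followed the number of genes seen in a cell, with a Spearman correlation across cells of 0.59, 0.37, 0.90 and 0.88 on plates 1 to 4. The correlation of the summed share with genes seen was negative in control, at -0.30 and -0.13, and positive in tumor, at 0.50 and 0.40. These values share the depth and quality of each library. Among cells with 3000 to 4000 genes at equal depth, the median complex I share was 1.45% in 12 control cells and 0.473% in 76 tumor cells. Among cells with 4000 to 5000 genes it was 1.13% in 68 control cells and 0.564% in 28 tumor cells, and with 5000 to 6000 genes 0.883% in 91 control cells and 0.721% in 9 tumor cells. Cells with 2000 to 3000 genes had 1.72% (4 control cells) and 0.434% (56 tumor cells), and those under 2000 genes 1.24% (5 control cells) and 0.345% (16 tumor cells). The control value was the higher in each of these ranges, and the gap was narrowest among cells with the most genes. The control plates differed in genes per cell at this depth, with quartiles of 4289 to 4947 on plate 1 and 5110 to 5453 on plate 2. The narrowing was therefore not told apart from the difference between the control plates.

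**Figure D4:**
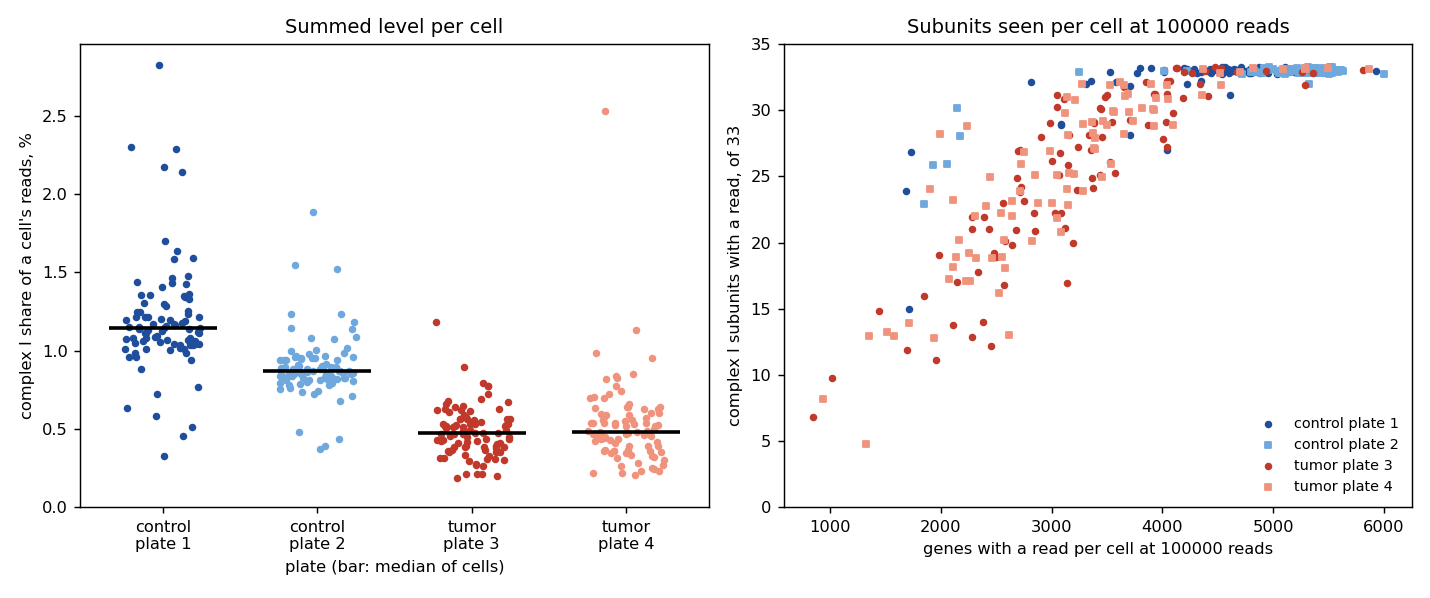
Left, share of complex I in the reads of each kept cell, in percent, by plate, with the median as a bar (1.15%, 0.872%, 0.471% and 0.479%). Right, subunits with a read out of 33 against genes with a read in the same cell, both at 100000 reads per cell; tumor cells (red) extend to fewer genes and fewer subunits.

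Since tumor cells were mostly of type II character, the comparison was repeated in type II-like cells, those that had 5 reads or more from 3 or more of the 4 type II markers. These were 8 control cells, or 4.44% of the group, and 84.9% of tumor cells. Complex I made up 0.889% of their reads in control and 0.525% in tumor. The median log2 ratio was -0.69 and 10 of 33 subunits were at least 2-fold lower, against 14.8% of all genes in these cells. Both were smaller than over all cells, and the control value rests on 8 cells, which were not split by plate. The cells of lowest and highest share among them (0.437% and 1.24%) were on plate 2, which as a whole had 0.880%. Over all cells without control plate 1, the median log2 ratio was -0.77 and the count 10 of 33. The part of neuroblast type was therefore not told apart from that of the control plate. The other 28 tumor cells had 0.404% and the other control cells 1.04%. In the type II-like cells the log2 ratios ran from -1.91 for ND-B17 to 0.30 for ND-49, with ND-B16.6 at 0.06. Between these, ND-42 had a log2 ratio of -1.44 and ND-13B of -1.35, ND-24 of -1.01, and ND-20 of -0.07.

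Subunit transcripts co-varied from cell to cell, weakly for any given pair. Within plates, the median Spearman correlation over the 528 pairs of subunits was 0.20 on both control plates and 0.15 and 0.17 on the tumor plates, against 0.07, 0.07, 0.05 and 0.04 over all pairs of 3275 genes seen in at least 50% of the cells of every plate. Positive values made up 90.2% to 90.9% of subunit pairs and 63.9% to 69.1% of all pairs. The 3275 genes were not matched to the subunits for level or length. Once the number of genes in a cell was held constant, the subunit median was 0.21 and 0.20 in control and 0.05 and 0.11 in tumor, against 0.04, 0.06, 0.02 and 0.01 over all pairs. Pairs within a module were slightly above pairs between modules, at 0.21, 0.22, 0.15 and 0.19 against 0.18, 0.18, 0.14 and 0.16. The closest pair over the 4 plates was ND-AGGG and ND-PDSW of the distal arm, at 0.41, 0.50, 0.35 and 0.34. ND-PDSW also had the highest mean correlation with the sum of all other subunits, 0.49, followed by ND-B22 at 0.46 and ND-MWFE at 0.45.

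In control, 3 core subunits of low level per kilobase did not follow the rest. ND-49 had a negative correlation with the sum of the others on every plate, -0.20, -0.02, -0.07 and -0.21. ND-75 and ND-51 were negative on the control plates, at -0.19 and -0.12 and at -0.09 and -0.10, but positive on the tumor plates, at 0.31 and 0.33 and at 0.23 and 0.23. Among pairs of these genes, named after their values were seen, ND-49 and ND-75 had correlations of 0.37, 0.33, 0.02 and -0.03 on plates 1 to 4, and ND-51 and ND-75 of 0.19, 0.22, 0.25 and 0.33. These genes, with ND-42 and ND-39, are the 5 with over 1500 bases of exon. Across the 33 subunits, the correlation of a gene with the rest was lower for longer genes in control, with a Spearman correlation with exonic length of -0.50 and -0.55 on plates 1 and 2, and of -0.05 and -0.22 on the tumor plates. Median correlations among the 5 long subunits were 0.11 and 0.25 in control and 0.11 and 0.26 in tumor. Those between the 5 long and the 28 shorter subunits were 0.08 and 0.07 in control and 0.12 and 0.13 in tumor, against 0.25, 0.23, 0.17 and 0.18 among the shorter.

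**Figure D5:**
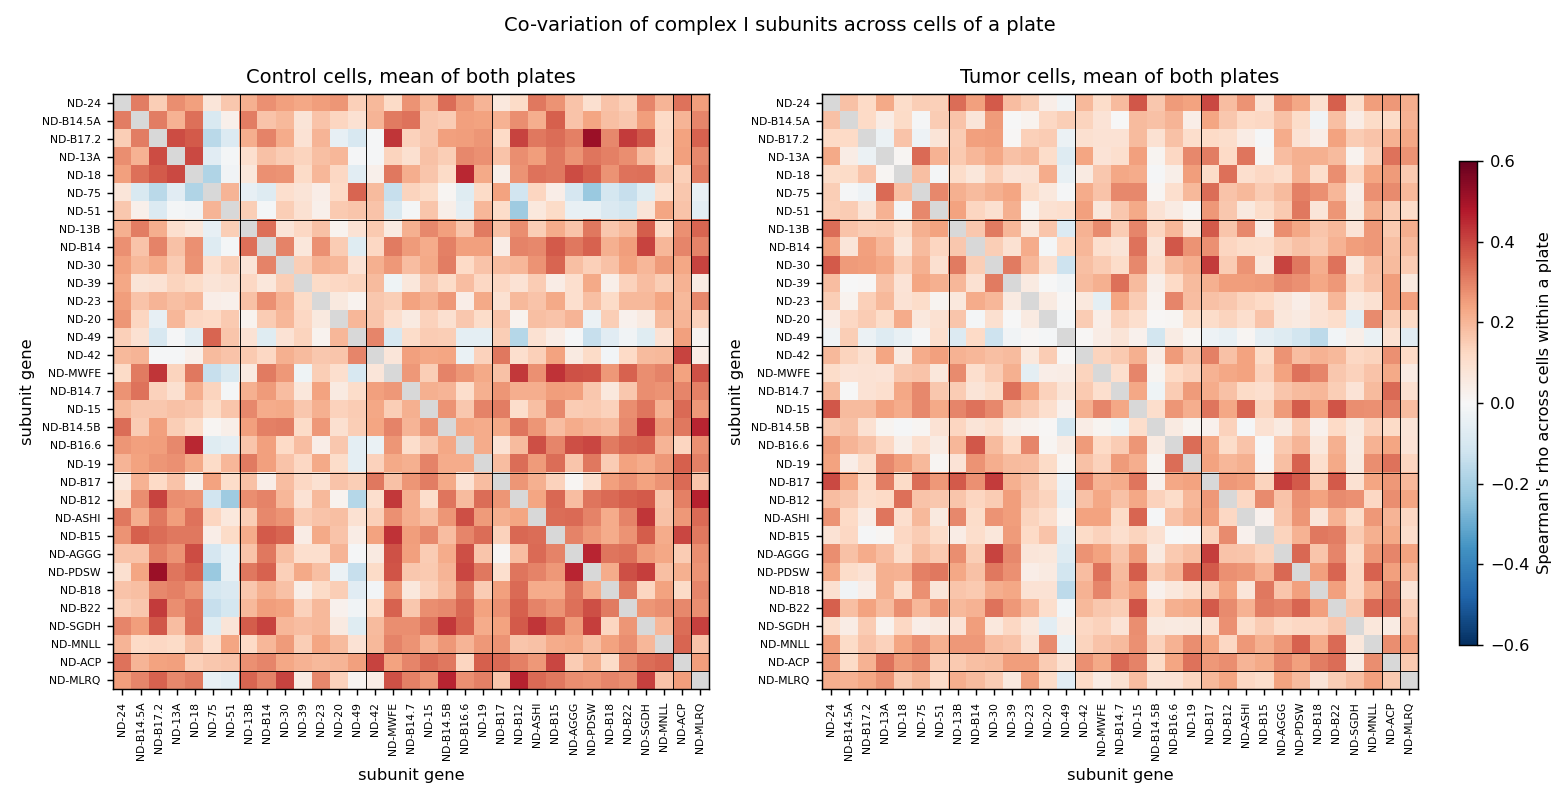
Spearman correlation across cells for each pair of measured subunits, averaged over both plates of a group, in control (left) and tumor (right); black lines separate modules and colour runs from -0.6 to 0.6. Most pairs are positive, while ND-75, ND-51 and ND-49 form pale or blue bands in control. In tumor ND-49 does so most clearly, and ND-B14.5B forms a pale band.

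Outside the complex, the genes whose level followed summed complex I most closely across cells were other respiratory chain genes. Of 3242 genes seen in at least 50% of cells of every plate, whose median correlation over the 4 plates was -0.02 and whose 95th percentile was 0.26, the 8 highest all encode subunits of complex III, complex IV or ATP synthase. UQCR-Q of complex III was at 0.69 (0.76, 0.73, 0.59 and 0.69 on plates 1 to 4), followed by cype of complex IV at 0.57, UQCR-6.4 at 0.55 and COX7A at 0.54. The others were ATPsynF, ATPsynC, ATPsynO and ATPsynD at 0.54, 0.53, 0.53 and 0.52. The correlation of subunits of complex I with those of complex III, IV and ATP synthase had medians of 0.26, 0.26 and 0.24 on plate 1. They were 0.22, 0.24 and 0.22 on plate 2, 0.18, 0.16 and 0.18 on plate 3, and 0.16, 0.21 and 0.21 on plate 4. Among complex I subunits themselves the medians were 0.20, 0.20, 0.15 and 0.17 on plates 1 to 4. Values between complexes were the higher, by small amounts, except for complex III on plate 4. These correlations share the libraries and depth of the cells.

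The other complexes had ratios of the same order. The median log2 ratio was -1.13 for the 8 measured genes of complex III, -1.24 for 8 of complex IV and -0.93 for 11 of ATP synthase, from lists of symbols that start with UQCR-, COX or ATPsyn, with Cyt-c1 and RFeSP added to complex III. Genes at least 2-fold lower numbered 4 of 8, 5 of 8 and 3 of 11, against 14.7% of all genes. Relative to their length bins the medians were -0.70, -0.65 and -0.53, against -0.55 for complex I. Within these lists UQCR-C1, a core protein of complex III, was at 926, 947, 901 and 1048 CPM, without a gap between control and tumor plates.

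Alternative routes of electrons to ubiquinone were mixed. The 4 genes of succinate dehydrogenase differed among themselves, from SdhD at 458, 375, 142.9 and 176.5 CPM, a log2 ratio of -1.39, through SdhA at -0.85 and SdhC at -0.78, to SdhB at 211, 242, 225 and 214 CPM, a log2 ratio of -0.04. Gpo1, the mitochondrial glycerol phosphate dehydrogenase, was at 21.4, 30.5, 12.1 and 20.9 CPM, with a log2 ratio of -0.67. Dhod, the dihydroorotate dehydrogenase of pyrimidine synthesis, was higher on both tumor plates, at 196 and 197 CPM against 169.2 and 137.8 CPM. This held for 33% of all genes. Of these 6 genes, 1 was at least 2-fold lower, against 14.7% of all genes. Lower on both tumor plates than on both control plates were 4, against 35.1% of all genes.

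Of the listed assembly factors of complex I, 14 symbols matched no row of the table. The 3 matched genes differed from each other. CIA30, the counterpart of human NDUFAF1, was at 159.7 and 81.2 CPM in control, against 21.6 and 33.1 CPM in tumor. It was 4.46-fold lower in tumor by the pools, next to 4.31-fold for ND-B17, the subunit of lowest ratio. The plate pairs of CIA30 ranged from -2.88 to -1.29, which spans the -2.24 to -1.97 of ND-B17. The control plates of CIA30 lay far apart. Nubpl, which is needed for the iron-sulfur clusters of the complex, was at 182.3, 137.03, 217 and 199.6 CPM, a log2 ratio of 0.39, and sicily, the counterpart of NDUFAF6, was at 25.1, 45.6, 31.2 and 60.4 CPM, a log2 ratio of 0.35 with overlapping plates. Nubpl has 7023 exonic bases and CIA30 1048.

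The mitochondrially encoded core subunits went the other way at low level. Of 7 genes, 4 matched a row of the table, and mt:ND3 and mt:ND6 reached 5 CPM. In control, mt:ND3 was at 1.43 and 6.85 CPM and mt:ND6 at 0.612 and 7.45 CPM. In tumor they were at 13.1 and 11.7 CPM and at 10.1 and 12.3 CPM. Both tumor plates lay above both control plates, while the ratio between the control plates was larger than that of either tumor plate to control plate 2. The other matched genes, mt:ND2 at 2.30 CPM in control against 6.543 in tumor and mt:ND4L at 0.133 against 0.489 CPM, had log2 ratios of 1.47 and 1.34. Reverse transcription was primed with oligo-dT per the labels' protocols, and levels of mitochondrial and nuclear genes were not set against each other here.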

How the data were processed

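Per the labels' protocols, single cells were sorted into 96-well plates and amplified by SMART-Seq2 without molecular identifiers. The authors deposited whole-number read counts per gene for 384 wells, not normalized. The submitters' processing notes name BDGP6 and dm6. The aligner, the counting tool and the strand setting were not given in the sources used here. Of 14219 feature IDs, 13702 matched a symbol. Plates are blocks of 96 consecutive library numbers in the labels, each with a full set of index pairs. No 2 wells held identical counts.

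Wells under 100000 reads or 1000 genes were left out (12 control, 7 tumor). Counts were summed over the cells of a plate or pool and scaled to 1000000 reads (CPM), and 0.1 CPM was added before log2 ratios. Poisson intervals on a measured subunit were within 1.91% of its value, for counting error only. PCR reads are not independent molecules. Exonic length is the union of exons in Ensembl release 115. In correlations, cells of a plate were ranked by CPM. Arithmetic was tested on simulated data. Members, lists and roles were chosen with earlier results of these data known. The rule for plate values took the core subunits, the 3 highest and 3 lowest per kilobase, the 4 lowest and 4 highest ratios, the nearest to 2-fold on each side, the paralogs, list genes of at least 5 CPM and the 8 genes closest to the summed complex. It was not followed in full: most list genes are given by counts and medians and the 8 closest by their correlations, while ND-B8, ND-MLRQ and other genes outside it were added after their values were seen. Python 3.11.15, numpy 2.4.6, pandas 2.3.3, scipy 1.17.1, matplotlib 3.10.9, R 4.3.3 and edgeR 4.0.16 (TMM factors only) were used.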

Additional observations from a re-analysis of the deposited data

How the results depend on the processing

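The median log2 ratio of the subunits stayed below 0 under all 17 alternatives, from -1.30 to -0.69. Within type II-like cells it was -0.69, the count at least 2-fold lower was 10 and the length-matched difference -0.34. Without control plate 1 the count was 10, while the other alternatives on the count gave 9 (of the 16 subunits without exonic overlap, chosen after seeing the data) to 24. The length-matched difference was negative under 19 of 20 alternatives. With the median CPM over cells in place of summed reads it was 0.94. The median log2 ratio was then -1.30 for the subunits and -1.71 for all genes, and the cause was not tested. With no minimum level the length-matched difference was -0.79. TMM scaling moved all ratios by 0.06 and gave 16 subunits at least 2-fold lower. The share of tumor reads by the median over cells was 0.477%. The median share of control cells was 99.4% without thinning, 97.8% with at least 3 reads, 99.4% in cells with at least 500000 reads and 2000 genes, 98.9% without either control plate, 100% in type II-like cells and 98.3% without the last well of each plate. The median share of tumor cells was 83.8% without thinning, 74.6% at 50000 reads, 72.97% with at least 3 reads, 79.3% in cells of at least 500000 reads and 77.7% in type II-like cells. The mean co-variation of 0.18 was 0.24 by Pearson correlation and 0.145 given genes per cell. No paired analysis was possible because no test was made and plate numbers pair no samples. The paralogs and ND-B8 had too few reads for a ratio, at the depth at which the other subunits were measured.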

Other observations

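The 12 control wells left out for low depth held 293641 reads, of which 0.774% fell on complex I, and the 7 tumor wells left out held 72374 reads, of which 0.073% did. Beyond the 8 genes named above, the genes closest to summed complex I across cells held further respiratory chain genes and a few others. The superoxide dismutases Sod1 (cytosolic) and Sod2 (mitochondrial) had mean correlations of 0.43 and 0.41 and log2 ratios of -1.52 and -1.30. The peroxiredoxin Prx5 was at 0.45, with 383 CPM in control and 164.4 CPM in tumor. The nucleotide enzyme dUTPase was at 0.47, with 1628 CPM in control and 420.5 CPM in tumor, a log2 ratio of -1.95. Fis1 of mitochondrial fission (0.42) and the translation factor eEF1beta (0.44) had log2 ratios of -0.25 and -0.16, so a close correlation within plates did not go with a low ratio in every gene. RpL41, a ribosomal protein gene of 320 exonic bases, was at 0.43 with a log2 ratio of 0.30.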
